A study of Mus musculus with 9 samples.

Results

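The proteasome genes described here are those coding for the constitutive subunits of the 20S core particle and the 19S regulatory particle. They were chosen by name and gene type, with no use of measured values, as protein-coding genes of the Psma, Psmb, Psmc and Psmd series without the interferon-inducible catalytic subunits Psmb8, Psmb9 and Psmb10. The rule selected 36 of 54532 genes in the expression table. Of these, 7 code for the alpha ring and 7 for the beta ring of the 20S core, 6 for the ATPase ring and 11 for the non-ATPase subunits of the 19S particle, and 3 (Psmd5, Psmd9 and Psmd10) carry the same gene family name but code for chaperones that assemble the 19S base. The last 2, Psma8 of the testis and Psmb11 of the thymic cortex, are tissue-restricted 20S subunits.

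RNA was sequenced from 9 samples of sorted splenic dendritic cells (DCs), 3 in each of 3 groups. N-mDCs were mature conventional DCs (CD11c+ with surface MHCII) from the spleen of normal mice. T-mDCs were the same population from the spleen of mice with T cell acute lymphoblastic leukemia (T-ALL), and T-DCs were the CD11c+ cells with low MHCII from leukemic spleen. The mice were young females on the C57BL/6J background (T-ALL recipients C57BL/6J or C57B6.SJL), and the leukemia came from transplanted GFP+ cells transformed by a retrovirus for the Notch1 intracellular domain, given without irradiation, so that the host kept its own hematopoietic cells. N-mDCs came from mice without leukemia, and no group carried a deletion or a drug. Red blood cells were lysed, and cells were enriched on CD11c beads and then sorted by flow cytometry. The labels do not say whether the 3 samples of a group came from separate mice, so p-values measure the spread between these samples, which may in part be technical.

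The proteasome is the barrel-shaped protease that degrades ubiquitin-tagged proteins in every nucleated cell. Its 20S core stacks alpha rings, which gate the entrance, on beta rings, of which Psmb5, Psmb6 and Psmb7 hold the catalytic sites, while the 19S particle recognises the ubiquitin tag, removes it, unfolds the protein with its ATPase ring and feeds it to the core. In DCs the peptides released by the proteasome are loaded on MHC class I for CD8 T cells, and interferon replaces the catalytic subunits with Psmb8, Psmb9 and Psmb10 to give the immunoproteasome. Subunit genes are known to be induced together by NFE2L1, a factor that binds antioxidant response elements in their promoters when proteasome capacity falls short.

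Promoter sequence was searched for that element because it is the feature by which subunit genes are known to be induced together. Of the 36 genes, 29 had a promoter in the RefSeq table (build GRCm38.p6). The element core TGACNNNGC, on either strand within 250 bases before the start, was present in 5 of these 29 (17.2%), against 11.5% of 27025 genes in the table. The box CCAAT was present in 12 of the 29 (41.4%, against 37.5% of all genes) and GGGCGG in 17 (58.6%, against 35.4%), and none of the 3 motifs holds another. The 5 promoters with the element core are shown in windows of 60 bases, read 5′ to 3′ along the gene, with the match in capitals. They belong to 2 catalytic subunits, 1 ATPase, 1 assembly chaperone and 1 lid subunit. They lie at chr14:54618009-54618068 on the minus strand for Psmb5, chr11:70525297-70525356 on the plus strand for Psmb6, chr14:45329574-45329633 on the plus strand for Psmc6, chr5:123228130-123228189 on the plus strand for Psmd9, and chr11:107479278-107479337 on the plus strand for Psmd12.
Psmb5: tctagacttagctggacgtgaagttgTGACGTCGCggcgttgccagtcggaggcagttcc
Psmb6: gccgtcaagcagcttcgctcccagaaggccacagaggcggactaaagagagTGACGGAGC
Psmc6: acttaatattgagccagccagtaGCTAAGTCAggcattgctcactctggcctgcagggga
Psmd9: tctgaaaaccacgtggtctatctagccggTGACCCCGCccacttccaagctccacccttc
Psmd12: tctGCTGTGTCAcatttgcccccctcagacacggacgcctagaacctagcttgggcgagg

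The match began 9 bases before the start in Psmb6, 31 in Psmd9 and 47 in Psmb5, on the strand of the gene. In Psmc6 and Psmd12 it read on the opposite strand and lay 227 and 247 bases before the start. In the DCs, the levels of Psmb5 and Psmb6 overlapped between all groups, while those of Psmc6, Psmd9 and Psmd12 were high in 2 of the 3 T-DC samples, as described beneath.

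Levels are given as FPKM, fragments per kilobase of gene scaled to library size, which sets genes of different length on the same scale. The 9 samples held between 15360815 and 18440913 reads on genes, and the 36 proteasome genes took 0.242% to 0.462% of them. T-DC samples 2 and 3 stood apart from T-DC sample 1. The summed level of 8 erythroid markers (among them the globins, Alas2 and Car1) was 607 FPKM in T-DC sample 1, 58098 in sample 2 and 42452 in sample 3, against 15.1 to 5359 in the 6 mature DC samples. The summed level of 10 cell cycle genes was 164, 1451 and 1485 FPKM in T-DC samples 1, 2 and 3, and 168 to 346 in mature DCs, and that of 5 neutrophil genes was 8.19, 3752 and 1273 FPKM, against 3.45 to 632. The summed level of 9 conventional DC markers, none of them at 0, was 707, 341 and 189 FPKM, against 687 to 814. In T-DC sample 1, 404 FPKM of that sum came from Sirpa, which macrophages also express, and the other 8 markers lay below all 6 mature DC samples. For 6 macrophage genes the sum was 2797, 1156 and 712 FPKM in T-DC samples 1, 2 and 3. It was 1347 to 2860 in N-mDCs and 477 to 1225 in T-mDCs. Zbtb46, the factor that defines conventional DCs, measured 1.84 to 3.42 FPKM in T-DCs and 10.7 to 23.5 in mature DCs. MHCII genes summed to 654 to 2595 FPKM in T-DCs and 13588 to 30163 in mature DCs, which matched the sort. T-mDC samples 2 and 3 lay closer to each other than any other pair of 1 group (chi-square per gene of 1.85, against 8.11 to 36.1 for the other pairs). In bulk samples, fewer cells of a type and less RNA per cell cannot be told apart.

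Of the 36 genes, 34 reached FPKM 1 in all 9 samples. Psmb11, the thymic cortex subunit, was listed at 0 in 8 samples and at 0.011 FPKM (1 read) in T-mDC sample 1, and it was not tested. Psma8, the testis subunit, lay between 0.495 and 1.19 FPKM and narrowly passed the filter, for which 3 of the 9 samples had to reach FPKM 1. That left 35 genes tested with limma on log2(FPKM + 1) among 12746 genes, with Benjamini-Hochberg adjustment over all of them.

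Psmd5, a chaperone of 19S base assembly, was higher in T-DCs than in N-mDCs, and it was the one constitutive proteasome gene to pass the test in any comparison. It was 1 of 35 genes called higher in that comparison, where 6.10% of all genes tested were called higher, and none was called lower, where 10.3% of all genes were. Between T-DCs and T-mDCs none of the 35 was called higher, against 5.44% of all genes, and none lower, against 8.79%. Between T-mDCs and N-mDCs none was called higher, against 0.690%, and none lower, against 1.52%. At an unadjusted limma p under 0.05 there were 11 proteasome genes in T-DCs against N-mDCs and 4 in T-DCs against T-mDCs, all of them higher in T-DCs, where 18.0% and 14.7% of all genes were higher and 17.1% and 15.4% lower, and 0 in T-mDCs against N-mDCs, where 7.12% of all genes were higher and 9.60% lower. With voom on the recovered reads the counts at the adjusted threshold were 1, 0 and 0. The median log2 difference over the 35 genes was 0.38 for T-DCs against N-mDCs and 0.27 for T-DCs against T-mDCs, beside 0.05 and 0.07 over all genes tested.

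**Figure D1:**
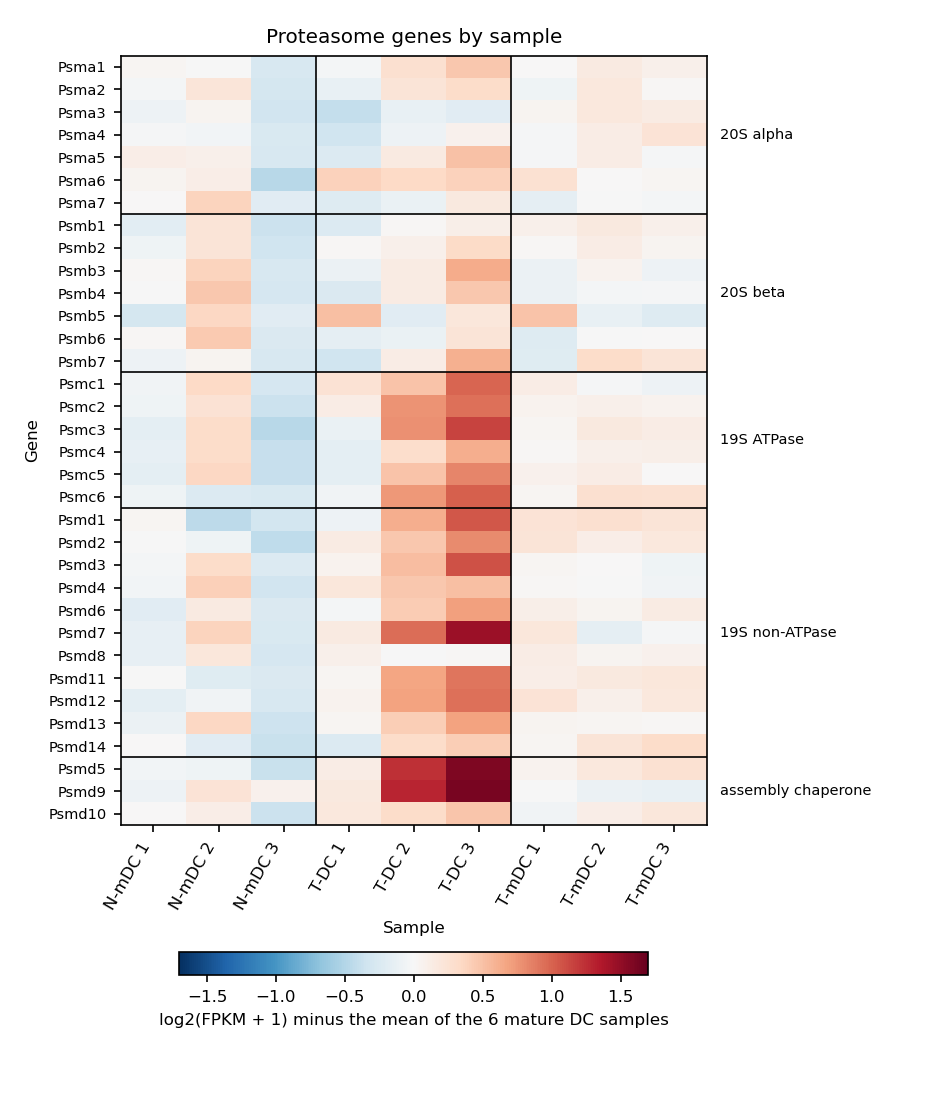
Each square shows 1 proteasome gene (vertical axis, grouped by subcomplex) in 1 sample (horizontal axis) as log2(FPKM + 1) minus the mean of the 6 mature DC samples, for the 34 genes at FPKM 1 or above in every sample. The deepest red lies in T-DC samples 2 and 3, in the 19S genes and in the chaperones Psmd5 and Psmd9, while T-DC sample 1 lies nearer to 0.

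The 20S core genes were the most abundant. In N-mDCs their mean levels ran from 19.9 FPKM for Psmb7 to 79.8 FPKM for Psmb4, a structural beta subunit, with a median of 44.6 over the 14 genes. The median was 46.2 FPKM in T-DCs and 44.6 in T-mDCs. Psmb7 and Psma3 were the lowest of the 14 and Psma6 and Psmb4 among the highest in each group. The ratio of the highest to the lowest mean of the 14 was 4.0 in N-mDCs, 4.41 in T-DCs and 3.42 in T-mDCs.

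The alpha ring genes code for the subunits through which substrates enter the core and on which the 19S particle docks. Their log2 differences between T-DCs and N-mDCs ran from −0.12 for Psma3 to 0.47 for Psma6, with a median of 0.17, and 0 of 7 passed the test. Against T-mDCs they ran from −0.37 for Psma3 to 0.27 for Psma6. Psma6 measured 97.7, 94.0 and 98.0 FPKM in the T-DC samples, 76.8, 80.8 and 53.6 in N-mDCs and 89.7, 75.0 and 76.2 in T-mDCs. It was the 1 proteasome gene whose T-DC samples all lay above all 6 mature DC samples, and its 3 T-DC samples differed little from each other. How many of all genes tested had that order was not counted. Psma3 measured 19.5, 23.7 and 22.6 FPKM in T-DCs and 26.8, 29.8 and 28.9 in T-mDCs. Its T-DC samples all lay below those of T-mDCs, the only proteasome gene for which this held, where 18.1% of all genes tested had that order.

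Among the beta ring genes, the catalytic subunits came first. Psmb5, the chymotrypsin-like subunit and main target of proteasome inhibitors such as bortezomib, measured 44.6, 70.4 and 48.3 FPKM in N-mDCs, 78.7, 48.2 and 63.3 in T-DCs and 77.7, 50.2 and 47.1 in T-mDCs. Every group held samples high and low, and the groups overlapped. The log2 difference was 0.22 ± 0.28 (SE, 3 samples a group) between T-DCs and N-mDCs, with a 95% interval of −0.42 to 0.86 and a limma adjusted p of 0.614. Between T-DCs and T-mDCs it was 0.13 (interval −0.51 to 0.77, adjusted p = 0.789 by limma).

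Psmb6, the caspase-like subunit, measured 46.8, 63.4 and 38.8 FPKM in N-mDCs, 41.6, 42.7 and 54.1 in T-DCs and 39.8, 46.0 and 46.4 in T-mDCs. The T-DC values all lay within the range of N-mDCs. Its log2 difference was −0.09 ± 0.22 (SE) between T-DCs and N-mDCs (interval −0.58 to 0.40, limma adjusted p = 0.809) and 0.06 between T-DCs and T-mDCs (adjusted p = 0.878). Psmb7, the trypsin-like subunit, measured 20.1, 22.1 and 17.6 FPKM in N-mDCs, 16.7, 23.5 and 33.1 in T-DCs and 18.4, 26.8 and 25.2 in T-mDCs. T-DC sample 3 was the highest of the 9 and T-DC sample 1 the lowest. Its log2 differences of 0.23 ± 0.26 (SE) against N-mDCs and 0.02 against T-mDCs did not pass (limma adjusted p = 0.554 and 0.961). Psmb7 shares 405 exonic bases with Nek6 on the opposite strand, which reached at most 9.57 FPKM, and whether counting used strand was not stated.

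The other beta genes, Psmb1, Psmb2, Psmb3 and Psmb4, are structural. Over the 7 beta genes the median log2 difference was 0.18 between T-DCs and N-mDCs and 0.08 between T-DCs and T-mDCs, and the values ran from −0.15 for Psmb1 to 0.27 for Psmb3 in the latter. The smallest limma adjusted p over the 7 was 0.462 in the comparison with N-mDCs and 0.479 in that with T-mDCs. No interval for a beta gene reached a log2 difference above 0.86 in either comparison.

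**Figure D2:**
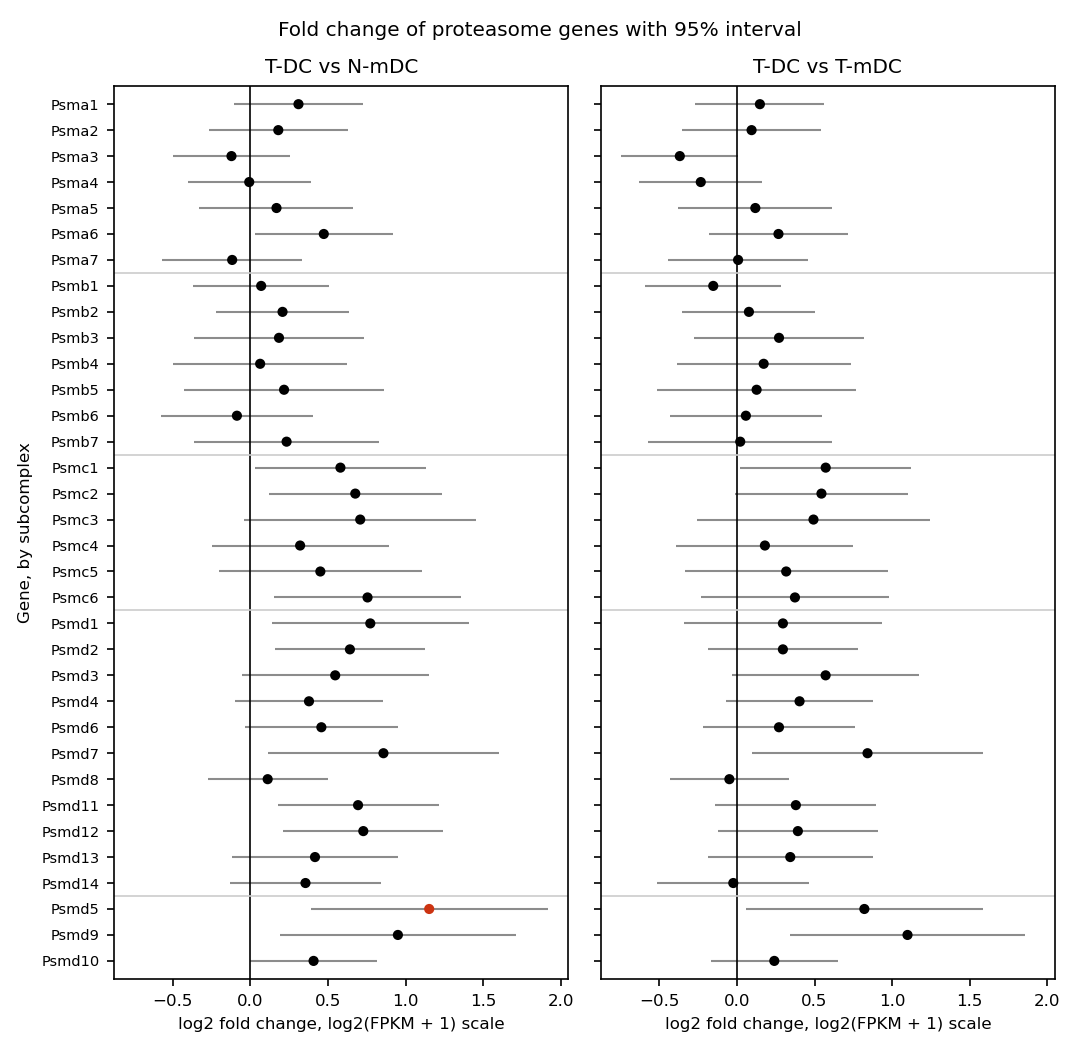
Log2 fold changes on the log2(FPKM + 1) scale (horizontal axis) with 95% intervals from limma for 34 proteasome genes (vertical axis), for T-DCs against N-mDCs on the left and against T-mDCs on the right, with subcomplexes parted by grey lines. The red point marks Psmd5, which alone passed the adjusted threshold, and the 20S genes in the upper 14 lines lie nearer to 0 than most 19S genes under them.

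The 19S genes selected by the rule had positive log2 differences between T-DCs and N-mDCs in 17 of 17 (16 with quantile scaling). Between T-DCs and T-mDCs 15 of 17 were positive (14 with quantile scaling and 10 with TPM). None was past the adjusted threshold. Genes outside the naming rule, such as Sem1 (log2 difference −0.25 between T-DCs and N-mDCs), are not counted here. All 6 ATPase genes had a positive log2 difference between T-DCs and N-mDCs, from 0.32 for Psmc4 to 0.75 for Psmc6, with a median of 0.63. The 3 genes Psmc1, Psmc2 and Psmc6 had an unadjusted p under 0.05, and the smallest limma adjusted p of the 6 was 0.0827. Against T-mDCs the differences ran from 0.18 for Psmc4 to 0.57 for Psmc1. Psmc3, which codes for an ATPase of the unfolding ring, measured 36.6, 51.1 and 29.5 FPKM in N-mDCs, 37.8, 70.9 and 92.3 in T-DCs and 41.9, 46.1 and 45.0 in T-mDCs. T-DC samples 2 and 3 were above all mature DC samples and T-DC sample 1 was among them. Psmc3 shares 215 exonic bases with Slc39a13 on the opposite strand, which reached at most 9.92 FPKM. Psmc6, whose promoter was shown for its element core, measured 16.7, 29.6 and 36.4 FPKM in the T-DC samples and between 14.3 and 21.3 in mature DCs.

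The 11 non-ATPase genes code for the scaffold, the ubiquitin receptors and the lid with its deubiquitinase. All 11 had a positive log2 difference between T-DCs and N-mDCs, from 0.11 for Psmd8 to 0.86 for Psmd7, with a median of 0.55, and 5 had an unadjusted p under 0.05. Psmd12 and Psmd11, both lid scaffold subunits, had the smallest p-values of the 19S genes. Psmd12 measured 16.3, 17.5 and 14.97 FPKM in N-mDCs, 19.2, 30.0 and 36.0 in T-DCs and 21.6, 19.6 and 20.98 in T-mDCs. All T-DC samples lay above all N-mDC samples, but T-DC sample 1 lay below the 3 T-mDC samples. Its log2 difference against N-mDCs was 0.73 ± 0.23 (SE; interval 0.21 to 1.24), 1.66-fold, with a limma adjusted p of 0.0589.

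Psmd11, a lid subunit whose abundance is known to promote proteasome assembly in embryonic stem cells, measured 9.28, 7.97 and 7.73 FPKM in N-mDCs, 9.59, 15.5 and 18.5 in T-DCs and 10.2, 10.7 and 10.8 in T-mDCs. It was the lowest of the 17 19S genes in each group. Its log2 difference against N-mDCs was 0.69 ± 0.23 (SE; interval 0.17 to 1.21), with a limma adjusted p of 0.0689.

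Psmd7, the inactive partner that holds the deubiquitinase Psmd14 in place, measured 22.3, 32.3 and 20.5 FPKM in N-mDCs, 27.6, 48.5 and 69.1 in T-DCs and 28.5, 22.1 and 24.3 in T-mDCs. T-DC sample 3 was 2.51 times T-DC sample 1, the widest gap among the 19S genes. Its log2 difference against T-mDCs was 0.84 ± 0.33 (SE; interval 0.10 to 1.58), with a limma adjusted p of 0.123. Psmd14 itself, the subunit that cuts the ubiquitin chain off, had a T-DC mean of 29.2 ± 6.86 FPKM (SD, n = 3) and a T-mDC mean of 29.2 ± 2.92. The Psmd14 means of these groups were thus alike to 3 digits, with more spread among T-DCs.

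Psmd8, a lid subunit, measured 47.8, 44.9 and 45.9 FPKM in T-DCs, 40.8, 51.8 and 36.8 in N-mDCs and 49.2, 46.6 and 47.6 in T-mDCs. It was the 1 gene of the 17 for which T-DC samples 2 and 3 were not both above T-DC sample 1. Psmd1 and Psmd2, the large scaffold proteins to which substrate shuttles bind, had T-DC means of 19.2 ± 7.57 and 65.0 ± 15.2 FPKM (SD, n = 3), N-mDC means of 10.4 ± 2.02 and 40.9 ± 6.41, and T-mDC means of 14.7 ± 0.282 and 51.8 ± 1.93. Psmd4, a ubiquitin receptor, measured 42.0, 50.6 and 52.4 FPKM in T-DCs, all above the 3 T-mDC samples at 35.0 to 37.0.

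In both T-DC comparisons the log2 difference of largest size was that of a chaperone. The chaperones hold ATPase subunits before these join the 19S base, and they leave the finished particle. Psmd5 (chr2:34849734-34874968, minus strand, mm10) measured 4.10, 4.02 and 3.07 FPKM in N-mDCs, 4.79, 11.5 and 14.9 in T-DCs and 4.50, 4.95 and 5.34 in T-mDCs. The T-DC samples lay above all N-mDC samples, sample 1 by a small margin, and sample 1 lay within the range of T-mDCs. Its log2 difference against N-mDCs was 1.15 ± 0.34 (SE; interval 0.39 to 1.92), 2.22-fold, with a limma adjusted p of 0.0490, and it was higher in 3 of 3 T-DC samples. The call lay near the threshold: it was lost on leaving out any 1 of the 8 samples other than T-DC sample 1, with adjusted p up to 0.149 and log2 differences no lower than 0.85, and kept without T-DC sample 1. With T-DC samples 2 and 3 left out, the difference was 0.30 (adjusted p = 0.408, limma). Against T-mDCs it was 0.82 ± 0.34 (SE), with a limma adjusted p of 0.141.

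Psmd9 (chr5:123169413-123250131, plus strand, mm10), a chaperone with a PDZ domain, measured 2.44, 3.31 and 2.84 FPKM in N-mDCs, 3.097, 7.96 and 10.2 in T-DCs and 2.63, 2.43 and 2.36 in T-mDCs. All T-DC samples lay above all T-mDC samples, while T-DC sample 1 lay among the N-mDC samples. Its log2 difference against T-mDCs was 1.10 ± 0.33 (SE; interval 0.34 to 1.86), 2.14-fold, with a limma adjusted p of 0.0607. The gene model in the table begins far before the RefSeq promoter shown above and shares 1849 exonic bases with Gm26745 on the opposite strand, which was listed at 0 in all samples. Psmd10 (gankyrin, which also binds the tumor suppressor RB) measured 18.9, 20.8 and 23.2 FPKM in T-DCs and 16.5, 17.8 and 12.6 in N-mDCs. Its T-DC samples were all above those of N-mDCs, with a smaller gap than for Psmd5.

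**Figure D3:**
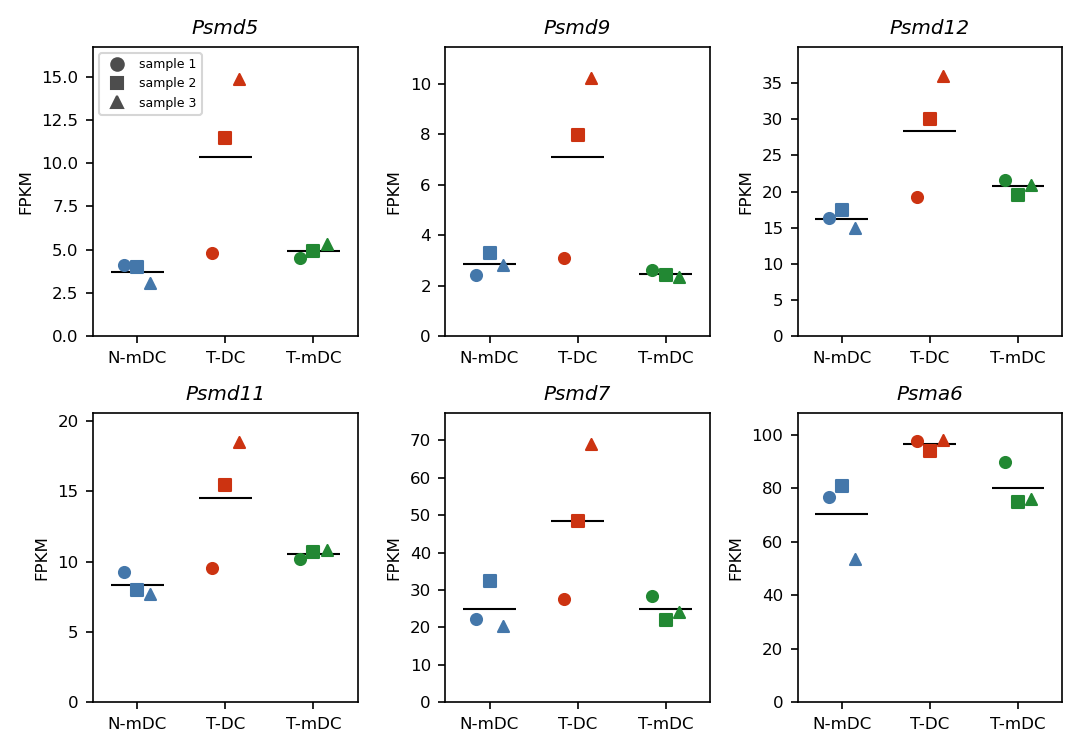
FPKM (vertical axis) of 6 proteasome genes in each sample, by group (horizontal axis), with the symbol giving the sample number and the black bar the group mean. In Psmd5, Psmd9, Psmd12, Psmd11 and Psmd7 the T-DC circle (sample 1) lies near the mature DCs and the other T-DC points above them, whereas the 3 T-DC points of Psma6 lie together at 94.0 to 98.0.

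The spread among T-DC samples had a common order. In 31 of 35 genes tested both T-DC sample 2 and T-DC sample 3 were above T-DC sample 1, an order held by 38.7% of all genes tested, and in 22 of 35 both were above all 6 mature DC samples, against 24.6%. By subcomplex the latter held for 4 of 14 core genes (Psma1, Psma2, Psma5 and Psma6), 15 of 17 19S genes (all but Psmc4 and Psmd8) and 3 of 3 chaperones. T-DC sample 1 lay within the range of the 6 mature DC samples for 17 of 17 19S genes and 3 of 3 chaperones, and for 8 of 14 core genes. The share of all genes tested for which it lay within that range was not counted. The median ratio of T-DC sample 3 to sample 1 was 1.33 over the core genes, 1.80 over the 19S genes and 3.11 over the chaperones, beside 0.931 over all genes tested. For T-DC sample 2 these ratios were 1.20, 1.49, 2.39 and 0.928. The order of the medians was thus the same in both libraries. The chaperone medians are the values of Psmd5, as only 3 genes enter them. The chaperone Psmd10 did not follow that order. Its ratios were 1.23 for T-DC sample 3 and 1.10 for T-DC sample 2, below the core medians.

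Groups without overlap were counted next. The T-DC samples were all above the N-mDC samples in 7 of 35 genes (Psma6, Psmc6, Psmd2, Psmd5, Psmd10, Psmd11 and Psmd12), where 16.0% of all genes tested had that order, and all below in 0, against 16.4%. They were all above the T-mDC samples in 6 of 35 (Psma6, Psmc1, Psmc2, Psmd3, Psmd4 and Psmd9), against 16.8%, and all below in 1 (Psma3), against 18.1%. Orders with all T-DC samples above were thus about as common among the proteasome genes as among all genes, and orders with all below were rarer.

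The subcomplex sums show the same order of samples on a scale that the small genes do not decide. The 14 core genes summed to 628, 758 and 521 FPKM in N-mDCs, 627, 680 and 810 in T-DCs and 658, 672 and 652 in T-mDCs. The 17 19S genes summed to 466, 576 and 391 FPKM in N-mDCs, 508, 716 and 898 in T-DCs and 534, 529 and 528 in T-mDCs. The core sums of 2 of 3 T-DC samples lay within the range of N-mDCs, while the 19S sums of T-DC samples 2 and 3 lay above all the others. The ratio of the 19S sum to the 20S sum within a sample does not depend on how samples were scaled to each other. It was 0.741, 0.760 and 0.750 in N-mDCs, 0.810, 1.05 and 1.11 in T-DCs and 0.812, 0.787 and 0.810 in T-mDCs. T-DC sample 1 thus had the ratio of T-mDCs, and the N-mDC ratios were the lowest of the 9. No test was made on these sums, since they are scores over the chosen genes.

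**Figure D4:**
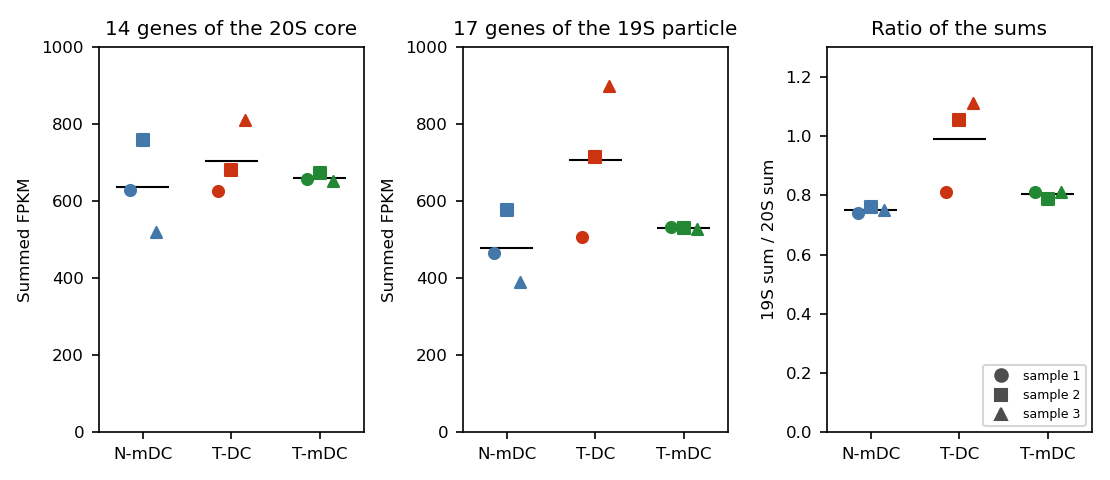
Summed FPKM of the 14 core genes (left) and the 17 19S genes (middle) and the ratio of the 19S to the 20S sum (right), vertical axes from 0, for each sample by group (horizontal axes), with black bars for group means. The ratio is 0.741 to 0.812 in 7 samples and 1.05 and 1.11 in T-DC samples 2 and 3.

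The same T-DC samples 2 and 3 had the high erythroid, cell cycle and neutrophil sums and the low conventional DC marker sums given above. The part of these transcripts in the 19S and chaperone values was not tested, and with 3 T-DC samples the marker sums and the 19S levels cannot be told apart. With T-DC samples 2 and 3 left out, an alternative chosen after seeing the data in which the lone T-DC sample is assumed to vary like the other groups, 0 of 35 genes passed in either T-DC comparison. The 19S genes then had a median log2 difference of 0.16 against N-mDCs (13 of 17 positive) and −0.10 against T-mDCs (7 of 17 positive). The 20S genes had medians of −0.17 and −0.16. An erythroid covariate was also fitted, the mean log2(FPKM + 1) of the 8 erythroid genes in each sample. With it the 19S medians were 0.13 against N-mDCs and −0.23 against T-mDCs, and 0 of 35 genes passed. Under that covariate none of the 12746 genes passed between T-DCs and T-mDCs either. With T-DC sample 1 left out instead, 15 of 35 genes were called higher against N-mDCs (5 ATPase genes, 8 non-ATPase genes, Psmd5 and Psmd9) and 11 against T-mDCs, where 20.5% and 18.3% of all genes were. No 20S gene was among them.

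Gene length differed between the subcomplexes, with a median of 2335 bases of gene model for the core genes, 2820 for the 19S genes and 7230 for the chaperones. Across the 35 genes the log2 ratio of T-DC sample 3 to sample 1 had a Spearman correlation of 0.44 with length, and that of sample 2 a correlation of 0.52, while over all 12746 genes these were −0.13 and −0.12. The points share the same libraries and depth, so these values are descriptions only.

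T-mDCs and N-mDCs, which differ by the leukemia of the host, gave no call among the proteasome genes. The median log2 difference over the 35 was 0.14, beside 0.03 over all genes, and the values ran from −0.15 for Psmd9 to 0.48 for Psmd1. The 3 smallest p-values were those of the 19S genes Psmd14, Psmd1 and Psmd2. Psmd14 measured 26.02, 29.9 and 31.7 FPKM in T-mDCs and 25.4, 22.2 and 19.3 in N-mDCs, a log2 difference of 0.38 ± 0.21 (SE; interval −0.11 to 0.87) with a limma adjusted p of 0.415. Psmd1 measured 14.6, 14.99 and 14.5 FPKM in T-mDCs and 12.6, 8.75 and 9.75 in N-mDCs, a difference of 0.48 ± 0.28 (SE) with a limma adjusted p of 0.432. For Psmd2 the difference was 0.34 ± 0.21 (SE; limma adjusted p = 0.449). All T-mDC samples were above all N-mDC samples in 7 of 35 genes (Psmc6, Psmd1, Psmd2, Psmd5, Psmd11, Psmd12 and Psmd14), against 19.3% of all genes, and all below in 0, against 15.7%. The catalytic Psmb5, Psmb6 and Psmb7 had log2 differences of 0.09, −0.14 and 0.21, with limma adjusted p of 0.901, 0.779 and 0.728.

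Spread within a group bore on these tests. The median coefficient of variation over the 34 genes measured in all samples was 19.4% in N-mDCs, 24.7% in T-DCs and 5.16% in T-mDCs, beside 22.4%, 34.9% and 12.7% over all genes tested. Among T-DCs it ran from 2.30% for Psma6 to 51.3% for Psmd9. The T-mDC spread includes samples 2 and 3, which lay close together (chi-square per gene of 1.85). T-mDC sample 1 lay at 16.1 and 15.8 from these 2, and why they were close was not tested. With them taken as 1 sample, 455 of all genes were called lower and 85 higher in T-DCs against T-mDCs. In the main fit these counts were 1120 and 693. Reads were not the limit, as a tested proteasome gene had a median of 1512 reads in a sample, for which counting error alone is 2.57%.

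The 3 catalytic subunits were set beside the inducible subunits that replace them. The share of the inducible subunit in the summed FPKM of each pair was computed per sample and compared by an exact two-sided permutation test on 3 against 3 samples, whose smallest p is 0.1, in 9 tests. The share of Psmb8 in Psmb8 and Psmb5 was 71.4%, 65.3% and 59.8% in N-mDCs, 41.4%, 49.5% and 32.4% in T-DCs and 49.0%, 66.6% and 69.4% in T-mDCs. All T-DC samples were below all N-mDC samples (24.4 percentage points lower in the mean, exact permutation p = 0.1, 0.225 after Benjamini-Hochberg adjustment), and T-DC sample 2 overlapped T-mDC sample 1.

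The share of Psmb9 in Psmb9 and Psmb6 was 62.4%, 57.4% and 55.9% in N-mDCs, 41.3%, 39.5% and 27.2% in T-DCs and 58.1%, 62.7% and 62.2% in T-mDCs. T-DCs were below both mature groups without overlap (exact permutation p = 0.1 for each, adjusted 0.225). The share of Psmb10 in Psmb10 and Psmb7 was 78.2%, 84.2% and 79.3% in N-mDCs, 79.97%, 73.7% and 53.4% in T-DCs and 75.7%, 70.3% and 72.0% in T-mDCs. T-DCs overlapped both other groups, and T-mDCs were below N-mDCs without overlap (exact permutation p = 0.1, adjusted 0.225).

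The constitutive catalytic genes summed to 137, 114 and 150 FPKM in T-DCs, 112, 156 and 105 in N-mDCs and 136, 123 and 119 in T-mDCs, so their sums overlapped, whereas the inducible genes summed to 152, 141 and 88.4 in T-DCs, 261, 336 and 188 in N-mDCs and 187, 241 and 247 in T-mDCs. The lower shares of T-DCs thus went with lower sums of the inducible genes and with overlapping sums of the constitutive ones. The inducible sum lay below those of all mature DC samples in T-DC sample 1 as well as in samples 2 and 3. The Psmb10 share of T-DC sample 1, at 79.97%, was not lower, as it lay above the T-mDC shares of 70.3% to 75.7%.

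**Figure D5:**
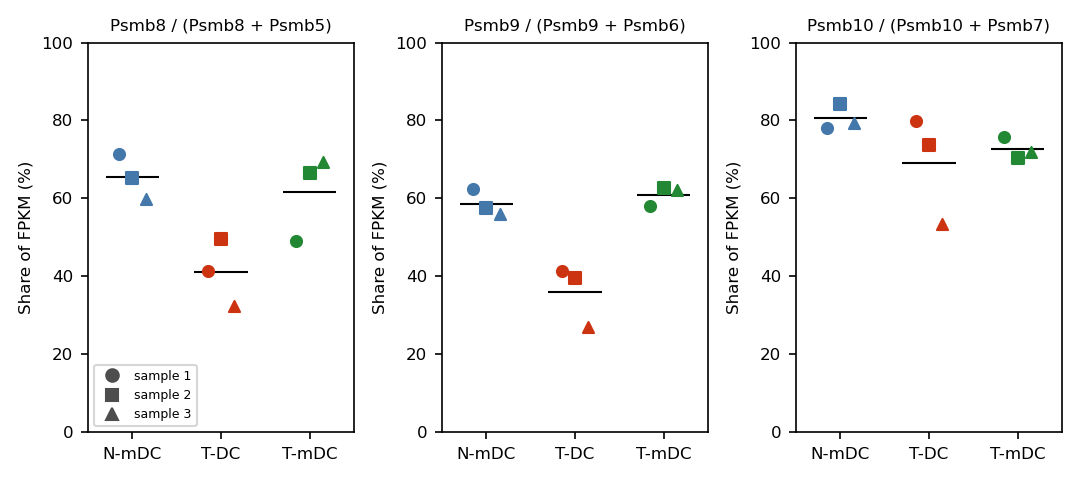
Share of the inducible subunit in the summed FPKM of each catalytic pair (vertical axes, percent, from 0 to 100) in each sample by group (horizontal axes), with black bars for group means. The 3 T-DC points of the Psmb9 pair, at 27.2% to 41.3%, lie below the 6 mature DC points, and those of the Psmb10 pair spread from 53.4% to 79.97%.

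Genes that work with the proteasome were read in 5 lists. Of all genes tested, 10.3% were called lower in T-DCs against N-mDCs and 8.79% against T-mDCs. Among the inducible subunits and the activator PA28 (Psme1 and Psme2, which open the core for peptide release), 4 of 5 fell in each comparison. Psmb10 did not pass in either. Psme2 had the log2 difference of largest size, −1.65 against N-mDCs (limma adjusted p = 0.00606) and −1.43 against T-mDCs (0.0113), and Psme1 had −1.21 and −1.07 (0.0106 and 0.0191). Psmb9 had −1.40 and −1.40 (0.0102 and 0.0113) and Psmb8 −1.22 and −1.09 (0.0290 and 0.0461). Against N-mDCs the calls of Psme1, Psme2 and Psmb9 held with any 1 sample left out, while that of Psmb8 was lost without any of 6 samples (N-mDC 1 and 2, T-DC 2 and 3, T-mDC 2 and 3), with adjusted p up to 0.096. With the erythroid covariate the calls of Psme1, Psmb9 and Psmb8 against N-mDCs were lost (adjusted p 0.0904, 0.0920 and 0.198), as they were with T-DC samples 2 and 3 left out (0.103, 0.0949 and 0.206), while that of Psme2 held under both. Against T-mDCs all 4 calls were lost without T-mDC sample 2 or 3, with adjusted p up to 0.0636 for Psme2 and Psmb9, 0.0969 for Psme1 and 0.175 for Psmb8. With T-mDC samples 2 and 3 taken as 1 sample, all 4 calls were lost as well. The limma adjusted p was then 0.0636 for Psme2 and Psmb9, 0.0962 for Psme1 and 0.170 for Psmb8. Those of Psme1 and Psmb8 were also lost without T-DC sample 2 or 3, and that of Psmb8 without N-mDC sample 1. All 4 were lost with the erythroid covariate, under which none of the 12746 genes passed against T-mDCs. That loss is thus not particular to these genes. With T-DC samples 2 and 3 left out, log2 differences against T-mDCs were −1.87 (Psme2), −1.20 (Psmb9), −0.89 (Psme1) and −0.73 (Psmb8).

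Of 8 genes for proteasome-associated receptors, deubiquitinases and activators, 1 rose in T-DCs against N-mDCs, where 6.10% of all genes tested were called higher. Usp14, a deubiquitinase that docks on the 19S base, measured 7.88, 18.1 and 19.2 FPKM in T-DCs, 6.11, 5.28 and 5.61 in N-mDCs and 8.34, 8.42 and 8.35 in T-mDCs. Its T-DC samples 2 and 3 were high and sample 1 lay below T-mDCs. The log2 difference was 1.18 ± 0.29 (SE; limma adjusted p = 0.0295), and the call was lost without any of 7 samples (all N-mDC samples, T-DC 2 and 3, T-mDC 2 and 3; adjusted p up to 0.101). It was also lost with the erythroid covariate (log2 difference 0.65, adjusted p 0.241) and with T-DC samples 2 and 3 left out (0.41, adjusted p 0.173). None of the 8 passed in the other comparisons. Of 5 chaperones of 20S assembly none passed in any comparison, with a median log2 difference of 0.21 in T-DCs against N-mDCs.

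Among 4 regulators of proteasome gene transcription, Nfe2l1, the factor named above, measured 34.9, 24.3 and 21.6 FPKM in T-DCs, 29.7, 25.6 and 27.9 in N-mDCs and 32.3, 32.0 and 31.5 in T-mDCs, and did not pass. Its 2 lowest values were in the T-DC samples with the high 19S levels. Whether its RNA level has a relation to the 19S levels was not tested. Nfe2l2, the related factor of the oxidative stress response, fell by 1.18 on the log2 scale in T-mDCs against N-mDCs (limma adjusted p = 0.0441) and was 1.01 higher in T-DCs than in T-mDCs (0.0251). The first call was lost without any of 6 samples (the 3 N-mDC samples, T-DC 2, T-mDC 2 and T-mDC 3; adjusted p up to 0.205) and the second without T-DC 2 or T-mDC 2 or 3 (up to 0.118). Of 23 alternatives, leaving out samples included, 8 kept the first call and 14 the second, and TPM ended both (adjusted p 0.168 and 0.162).

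Of 12 ubiquitin genes, shuttle receptors and partners of the p97 unfoldase, 2 rose and 0 fell in T-DCs against N-mDCs, and none passed in the other comparisons. Between T-DCs and N-mDCs 6.10% of all genes tested were called higher and 10.3% lower. Nploc4, a p97 cofactor, had a log2 difference of 0.79 and Ubqln4, a shuttle receptor, of 0.71 (limma adjusted p = 0.0331 and 0.0419). Leaving out any 1 sample other than T-DC 1 ended both calls, with adjusted p up to 0.101 for Nploc4 and 0.119 for Ubqln4. Of 23 alternatives 8 kept the call of Nploc4 and 7 that of Ubqln4, and the erythroid covariate ended both (adjusted p 0.221 and 0.268).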

How the data were processed

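The authors deposited a table of FPKM values (fragments per kilobase, with each library scaled by its own size factor) for 9 RNA-seq samples, on genome build mm10 per the labels' processing notes. The aligner, the counter and its use of strand are not given in the sources used here. Low values were whole multiples of the value of 1 read, so read counts could be recovered. Of the 36 gene positions, 35 matched GENCODE M21. Genes that reached FPKM 1 in 3 or more samples were tested in R 4.3.3 with limma 3.58.1 (trended empirical Bayes) on log2(FPKM + 1), with a pseudocount of 1, all 9 samples in 1 fit, Benjamini-Hochberg adjustment over 12746 genes and a threshold of 0.05. A fold change on this scale understates that of low genes. The fit was tested on simulated data.

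Groups followed the sample titles. The labels do not say whether equal replicate numbers mark samples of 1 mouse, and the main fit did not pair them. Correlations of deviations from the group means between same-numbered samples ran from −0.47 to 0.27. With 3 samples a group these cannot decide whether mice were shared. Statistics were given for Psmb5, Psmb6 and Psmb7, for the genes past the threshold or, where fewer than 3 passed, the 3 of smallest p in each comparison, and for listed pathway genes that passed. Other genes were given by level, range and count, and Psmc3, Psmc6, Psma3, Psma6, Psmd8, Psmd4 and Psmd10 were described with their levels after these were seen. The genes and lists were chosen with earlier results of these data known. Paaf1 of the assembly list was not analysed here. Of the list of ubiquitin genes, 1 gene is not reported here. Alternatives were a pseudocount of 0.1, no filter, FPKM of at least 5, TPM, median-of-ratios and quantile scaling, voom on recovered reads, only the groups compared, no trend, array weights, a replicate block, an erythroid covariate, T-mDC samples 2 and 3 as 1, and leaving out each sample. Pair shares were tested by exact permutation (scipy 1.17.1).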

Additional observations from a re-analysis of the deposited data

How the results depend on the processing

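The number of proteasome genes called higher in T-DCs against N-mDCs was 1 in the report. It was 0 with no filter, with quantile scaling and with only the 2 groups compared. It was also 0 with the erythroid covariate and with T-mDC samples 2 and 3 as 1 sample. It was 2 with TPM, under which 540 of the 12746 genes were called higher. It was 23 with array weights, under which 33.9% of all genes were called higher. In the paired fit with the replicate block it was 0 (adjusted p of Psmd5 0.0697), and among the genes of the pathway lists that fit also ended the calls of Usp14 (0.0526), Nploc4 (0.0694), Ubqln4 (0.0798), Psmb8 against T-mDCs (0.0641) and Nfe2l2 in both comparisons (0.0529 against T-mDCs, 0.1002 for T-mDCs against N-mDCs). No filter ended those of Usp14, Nploc4, Ubqln4, Psmb8 (in both T-DC comparisons) and, in T-mDCs against N-mDCs, Nfe2l2, and quantile scaling those of Nploc4, Ubqln4 and Nfe2l2 (in both comparisons). T-mDC samples 2 and 3 as 1 sample ended the calls of Usp14, Nploc4, Ubqln4 and Psmb8 against N-mDCs. Their limma adjusted p was then 0.0537, 0.0643, 0.0797 and 0.0516. It also ended both Nfe2l2 calls (limma adjusted p 0.117 against T-mDCs, 0.204 for T-mDCs against N-mDCs). Leaving out 1 sample at a time, the number of proteasome genes called higher in T-DCs against N-mDCs ran from 0 to 15, and for T-DCs against T-mDCs from 0 to 11, the upper values without T-DC sample 1. With array weights 21 proteasome genes were called higher against T-mDCs (40.7% of all genes) and 5 in T-mDCs against N-mDCs (14.8%). Under those weights 3 were called lower in T-DCs against T-mDCs (37.2% of all genes). TPM and quantile scaling each called 1 lower in that comparison, where they called 1339 and 1182 of the 12746 genes lower. TPM moved the median of all genes by −0.30 in T-DCs against T-mDCs and by 0.21 in T-mDCs against N-mDCs. The 20S genes were then positive in 0 of 14 against T-mDCs and the 19S genes in 10 of 17, with medians that differed from that of all genes by 0.28 (19S) and −0.01 (20S). Among the genes named with statistics, whose log2 differences are given here, 32 of 413 values under an alternative had the other sign. For T-DCs against T-mDCs, TPM gave −0.20, −0.27 and −0.30 for Psmb5, Psmb6 and Psmb7, quantile scaling −0.14, −0.19 and −0.20, and array weights −0.050, −0.097 and −0.11. The erythroid covariate gave −0.25 for Psmb6, −0.46 for Psmb7, −0.050 for Psmd9, −0.26 for Psmd7 and −0.13 for Psmd5, and T-DC samples 2 and 3 left out gave −0.078, −0.45 and −0.033 for Psmb6, Psmb7 and Psmd5. Against N-mDCs, Psmb7 was −0.084 with the erythroid covariate and −0.24 with those samples left out. For T-mDCs against N-mDCs, Psmb6 was 0.071 with TPM and 0.024 with array weights. Leaving out 1 sample gave, for T-DCs against N-mDCs, −0.25 to 0.10 for Psmb6 and −0.0036 to 0.47 for Psmb7, for T-DCs against T-mDCs −0.041 to 0.35 for Psmb5, −0.059 to 0.13 for Psmb6 and −0.22 to 0.26 for Psmb7, and for T-mDCs against N-mDCs −0.13 to 0.29 for Psmb5 and −0.30 to 0.043 for Psmb6. The causes of these shifts were not tested. The 9 differences in pair share moved by less than the spread between samples with any 1 sample left out, but 2 of them changed sign: the Psmb10 share in T-DCs against T-mDCs went from −3.61 to 4.21 percentage points without T-DC sample 3, and the Psmb8 share in T-mDCs against N-mDCs from −3.83 to 2.49 without T-mDC sample 1. As differences of log2(FPKM + 1) all 9 kept their sign.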
